A study of Mus musculus with 12 samples.

Results

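Oxidative phosphorylation is run by large protein complexes in the inner mitochondrial membrane. Complex I (NADH dehydrogenase) and complex II (succinate dehydrogenase) pass electrons to ubiquinone, complex III (cytochrome bc1) passes them to cytochrome c, complex IV (cytochrome c oxidase) reduces oxygen, and ATP synthase uses the resulting proton gradient to make ATP. Most of the subunits are encoded in the nucleus and a few core subunits in mitochondrial DNA, and several subunits of complex IV exist as isoforms that are used in particular tissues such as heart, lung or testis. The nuclear-encoded members were taken by gene name, as all names that begin with Ndufa, Ndufb, Ndufc, Ndufs, Ndufv, Uqcr, Cox4 to Cox8 or Atp5, together with Sdha to Sdhd, and 6 names ending in -ps were left out. This gave 92 of the 54146 genes in the table, namely 36 of complex I, 4 of complex II, 8 of complex III, 20 of complex IV, 15 of ATP synthase and 9 assembly or related factors that share the name stems. Ndufa4 and Ndufa4l2 were counted with complex IV, where Ndufa4 is known to reside.

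RNA had been sequenced from D2A1 cells, a mouse mammary carcinoma line carrying a doxycycline-inducible H2B-GFP, that were labelled with the membrane dye CellVue Claret, injected into the tail vein and sorted from the lungs as GFP+ cells. Cells that kept the dye were taken as dormant and cells that had diluted it as growing, the proliferating cells of the study. KO hosts carried floxed Tgfbr2 and LysM-Cre, which is active in myeloid cells, whereas the hosts labelled WT were not deleted. Per the methods the hosts were female mice aged 6 to 8 weeks. Dormant and growing cells from hosts of either kind made 4 groups of 3 libraries, each made from an aliquot of 50 cells and named below by state and host. Values were TPM, a transcript level that is corrected for gene length and brought to a common library total, so that the depth behind a value is unknown. Batch 1 of the library labels held the WT hosts and batch 2 the KO hosts, and host and batch therefore cannot be told apart.

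The libraries labelled dormant KO stood apart in cell type markers, with few transcripts of the tumour line and many of lung cells. How much of their RNA came from tumour cells is unknown, so that dormant KO below means the libraries with that label. The summed TPM of 5 genes of the tumour line (Spp1, Ibsp, Akr1c18, Krt8 and Krt18) was 1471.7 to 1876.7 in these 3 libraries and 31109.7 to 43091.7 in the other 9. Most of this sum was Spp1. In dormant KO against dormant WT 3 of the 5 were called lower, while Krt18 overlapped (158.5 to 248.7 TPM against 130.6 to 231.1) and Ibsp was listed at 0 in dormant WT and at 0.05 to 4.47 TPM in dormant KO. The sum of 12 markers of alveolar type 2 cells was 40293.7 to 42604.7 TPM in dormant KO, 77.5 to 141.3 in dormant WT, 56.1 to 97.6 in growing WT and 465.4 to 472.8 in growing KO, and 10 of the 12 were at 1 TPM or more in every dormant KO library. Sums of erythroid markers (50831.2 to 56263.6 TPM in dormant KO and 6196.3 to 13030.5 elsewhere) and of mesothelial markers (11355.8 to 12780.8 against 0.1 to 492.8) were shifted in the same way. Tgfbr2 itself, deleted in host myeloid cells and not in the tumour line, had 2.19 to 11.48 TPM in dormant KO and 0.14 to 11.09 in dormant WT. These markers move with every comparison below that includes dormant KO, and their part in the results was not tested. In bulk samples, fewer cells of a type and less RNA per cell cannot be told apart.

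Nuclear genes of the respiratory chain often carry sites for NRF1 and for the ETS factor GABP near their start, and some carry YY1 sites. RefSeq start regions (GRCm38.p6, 250 bases before to 50 after the start) were found for 73 of the 92 members. The NRF1 letters (GCGCA, any base, then GCGC), on either strand, were in the windows of 19 of the 73 (26%), against 5.19% of 27025 genes. The ETS letters CCGGAAG were in 17 (23.3%), against 9.93%, and the YY1 letters AAGATGGC in 9 (12.3%), against 3.19%. The 80 bases upstream of the start are shown for 2 of the 4 pairs of subunits whose ratio is followed below (Ndufc1 with Ndufc2, and Uqcrc1 with Uqcrh), for the member with the highest mean TPM (Uqcr11) and for a member that holds NRF1 and ETS letters together (Sdhd, at chr9:50603850-50603929, minus strand). Capitals mark NRF1 or ETS letters on either strand.
Ndufc1: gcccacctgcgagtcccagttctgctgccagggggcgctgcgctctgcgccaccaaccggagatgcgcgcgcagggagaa
Ndufc2: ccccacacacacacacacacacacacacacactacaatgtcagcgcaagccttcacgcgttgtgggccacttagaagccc
Uqcrc1: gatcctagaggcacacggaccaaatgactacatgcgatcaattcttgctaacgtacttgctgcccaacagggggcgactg
Uqcrh: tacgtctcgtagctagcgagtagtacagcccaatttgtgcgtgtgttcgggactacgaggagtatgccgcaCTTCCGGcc
Uqcr11: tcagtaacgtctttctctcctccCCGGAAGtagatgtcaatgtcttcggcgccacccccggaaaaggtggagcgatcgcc
Sdhd: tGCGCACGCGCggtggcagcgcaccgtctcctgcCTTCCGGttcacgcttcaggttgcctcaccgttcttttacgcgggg
The stretches of Ndufc1 (chr3:51408989-51409068, minus strand), Ndufc2 (chr7:97399923-97400002, plus strand) and Uqcrc1 (chr9:108936553-108936632, plus strand) held none of the searched letters, although downstream of the start the windows of Uqcrc1 and Ndufc1 held 2 NRF1 matches and 1 YY1 match, respectively. Those of Uqcrh (chr4:116075072-116075151, minus strand) and Uqcr11 (chr10:80406831-80406910, minus strand) each held 1 ETS match. These matches are descriptions of the letters and not of binding.

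The members were abundant transcripts in all groups. They took 5.27%, 5.82% and 5.28% of all TPM in dormant WT, compared with 5.96%, 5.12% and 6.001% in dormant KO, while growing WT had 6.36%, 6.47% and 6.47% and growing KO 6.35%, 6.27% and 6.21%. Every dormant library was thus below every growing library, while the dormant groups overlapped. Complex I took the largest share, with 2.74% ± 0.0487 (SD, n = 3) for growing WT and 2.65% ± 0.0423 for growing KO, beside 2.39% ± 0.188 for dormant WT and 2.13% ± 0.169 for dormant KO. Complex IV ran otherwise, with 1.31% ± 0.0319 in dormant WT, 1.59% ± 0.132 in dormant KO, beside 1.53% ± 0.0088 for growing WT and 1.49% ± 0.00414 for growing KO, and each dormant KO library was above each dormant WT library. Complex II had the smallest share of the 5 complexes and was between 0.0645% and 0.0873% in the 6 dormant libraries and between 0.106% and 0.123% in the 6 growing ones. ATP synthase was likewise lower in every dormant library (0.905% to 1.09%) than in every growing one (1.16% to 1.19%).

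**Figure D1:**
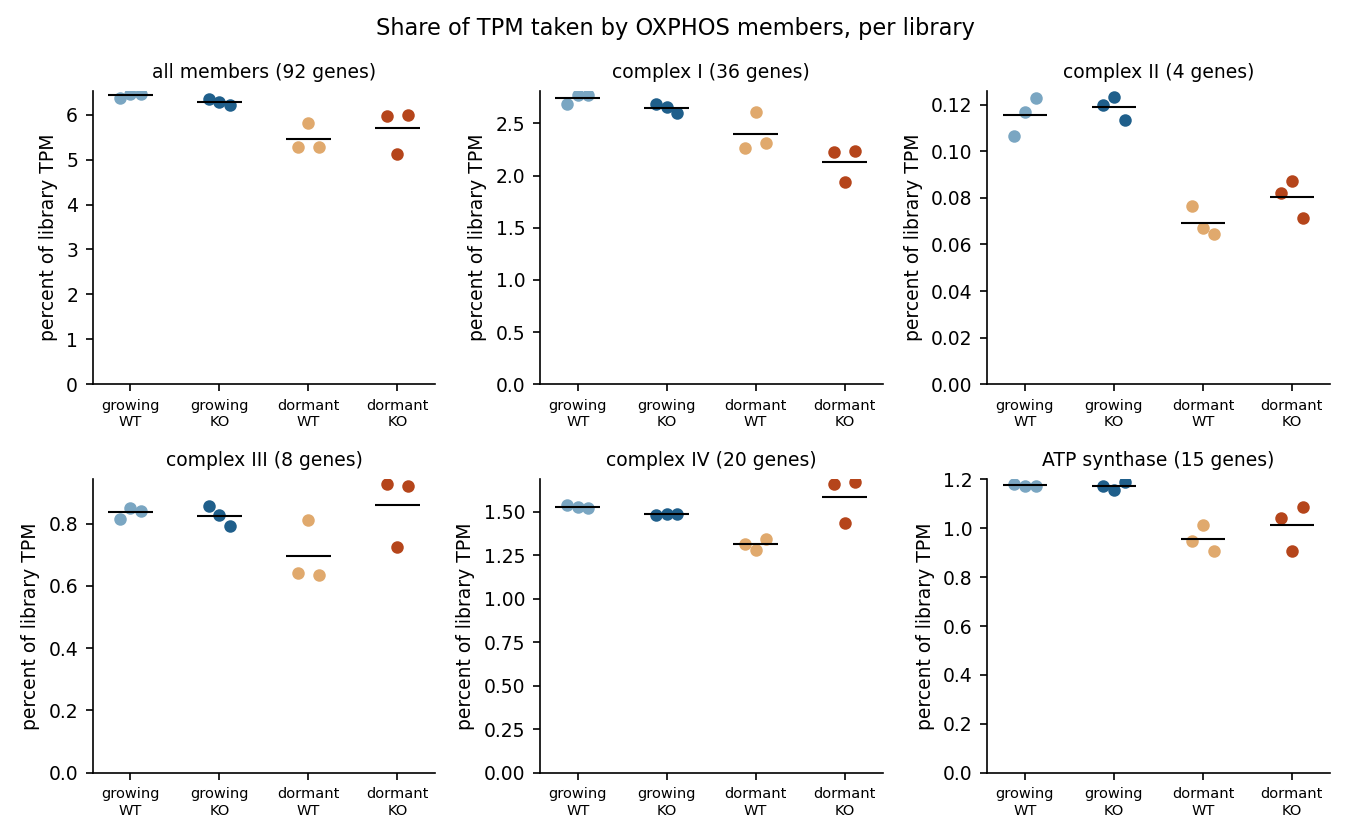
Percent of each library's TPM taken by the members of each complex; each point is 1 library, the horizontal line the mean of 3, and every axis starts at 0. All members together, complex II and ATP synthase are lower in each dormant library than in each growing library, whereas complex IV in dormant KO (1.43% to 1.67%) lies above dormant WT (1.28% to 1.34%).

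Levels of single members covered a wide range. The highest means over the 12 libraries were those of Uqcr11, a small subunit of complex III (2593 TPM), Ndufb9, an accessory subunit of complex I (2245 TPM), and Cox4i1, the common form of complex IV subunit 4 (2072 TPM). The lowest among the tested members were Ndufa4l2 (0.81 TPM), Cox6a2 (7.50 TPM) and Atp5sl, a name now replaced by Dmac2 (9.49 TPM). Genes were tested when they reached 1 TPM in at least 3 libraries, which kept 13002 genes and 89 of the 92 members. Of the others, Cox7b2 and Cox8c were listed at 0 in all 12 libraries, whereas Cox8b was above 0 only in 1 dormant WT library (0.79 TPM) and 2 of the dormant KO libraries (33.2 and 3.70 TPM). The spread among replicates was uneven. Over the 69 tested members with a mean of at least 100 TPM, the median SD of log2(TPM + 1) was 0.275 in dormant WT, 0.192 in dormant KO, 0.0746 in growing WT and, for growing KO, 0.0957. In dormant WT, 14 of the 89 had a library under 1 TPM, against 0 in dormant KO, 4 in growing WT and 4 in growing KO. Uqcrc2, a core protein of complex III, for instance had 84.9, 0 and 142.8 TPM in dormant WT and reached 111.9 to 125.8 TPM in growing WT.

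The first comparison asked how dormant cells differed between KO and WT hosts. A member was called where limma's moderated test gave a Benjamini-Hochberg adjusted p of at most 0.05 over all tested genes and the difference of log2(TPM + 1) was at least 1. Of 89 members, 5 were higher and 5 lower in dormant KO (5.62% each), against 12.9% of all tested genes called higher and 9.39% called lower. The median member difference was 0.14 and that of all tested genes 0.17. The lower members were 4 subunits of complex I and 1 of complex III, and the higher members were 2 accessory subunits of complex I and 3 genes counted with complex IV. By complex, the median difference was -0.14 over the 36 members of complex I (15 above 0 and 21 below), 0.34 over the 4 of complex II, 0.53 over the 8 of complex III, 0.35 over the 17 tested of complex IV (13 above 0 and 4 below), 0.06 over the 15 of ATP synthase and 0.69 over the 9 assembly and related factors. The split changed with the scaling. When libraries were scaled by median ratios, 23 members were called higher and 1 lower, against 17.6% and 6.15% of all tested genes, and the median of all tested genes moved to 0.52 and that of the members to 0.655. With quantile normalization 7 were higher and 4 lower, against 11.6% each way of all tested genes, with medians of 0.20 for members and -0.14 for all tested genes.

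Among the lower members was Ndufc1, a small accessory subunit of complex I (ENSMUSG00000037152.11, chr3:51404677-51408988, minus strand, GRCm38). It had 1722, 1499 and 1817 TPM in dormant WT and came to 717, 455 and 686 TPM in the dormant KO libraries. The dormant KO libraries were below all others, with 1209 to 1830 TPM in the growing libraries. The difference from dormant WT was -1.46 ± 0.16 (SE; adjusted p = 5.04e-05, limma), and -0.94 with median ratios. Ndufb9 (chr15:58933756-58939488, plus strand) had 2537, 1965 and 1916 TPM in dormant WT and came to 926, 767 and 1103 TPM in the dormant KO libraries, a difference of -1.20 ± 0.14 that became -0.68 with median ratios. Ndufa9, which belongs to the junction between the arms of complex I (chr6:126821721-126849136, minus strand), had 209.6, 408 and 197 TPM in dormant WT and came to 103, 69.6 and 107 TPM in the dormant KO libraries, with a difference of -1.48 ± 0.29. Its adjusted p was 0.003 by limma and became 0.0563 with median ratios and 0.0527 when only both dormant groups were fitted.

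Uqcrc1, a core protein of complex III (chr9:108936633-108949623, plus strand), had 473, 320.1 and 601 TPM in dormant WT and came to 236, 169 and 232 TPM in the dormant KO libraries, beside 637 to 739 TPM in the growing libraries. The difference between the dormant groups was -1.10 ± 0.21 (adjusted p = 0.0029, limma). It was under 1 in size without dormant WT replicate 3 (-0.89), without dormant KO replicate 2 (-0.94) and with quantile normalization (-0.95), and its adjusted p was 0.0749 with median ratios and 0.0635 when only both dormant groups were fitted. Uqcrh, the hinge protein of the same complex, went the other way. It had 521, 654 and 541 TPM in dormant WT and came to 1089, 903 and 1136 TPM in the dormant KO libraries, a difference of 0.87 ± 0.13 that was under the size required.

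Of the called higher members of complex I, Ndufa5 had 547, 341 and 351 TPM in dormant WT and came to 774, 778 and 979 TPM in the dormant KO libraries, with a difference of 1.06 ± 0.18. It lost the call by size alone without dormant WT replicate 2 (0.94), dormant WT replicate 3 (0.96) or dormant KO replicate 3 (0.94), and with quantile normalization (0.996). Ndufc2 (chr7:97400003-97407802, plus strand) had 223, 197 and 122 TPM in dormant WT and came to 405, 334 and 376 TPM in the dormant KO libraries, a difference of 1.07 ± 0.22 that was 0.82 without dormant WT replicate 3. Its adjusted p by limma was 0.00423, and 0.0557 when only both dormant groups were fitted. Both subunits were close to the growing level in dormant KO, with 763 to 1023 TPM for Ndufa5 and 289 to 499 TPM for Ndufc2 in the growing libraries.

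**Figure D2:**
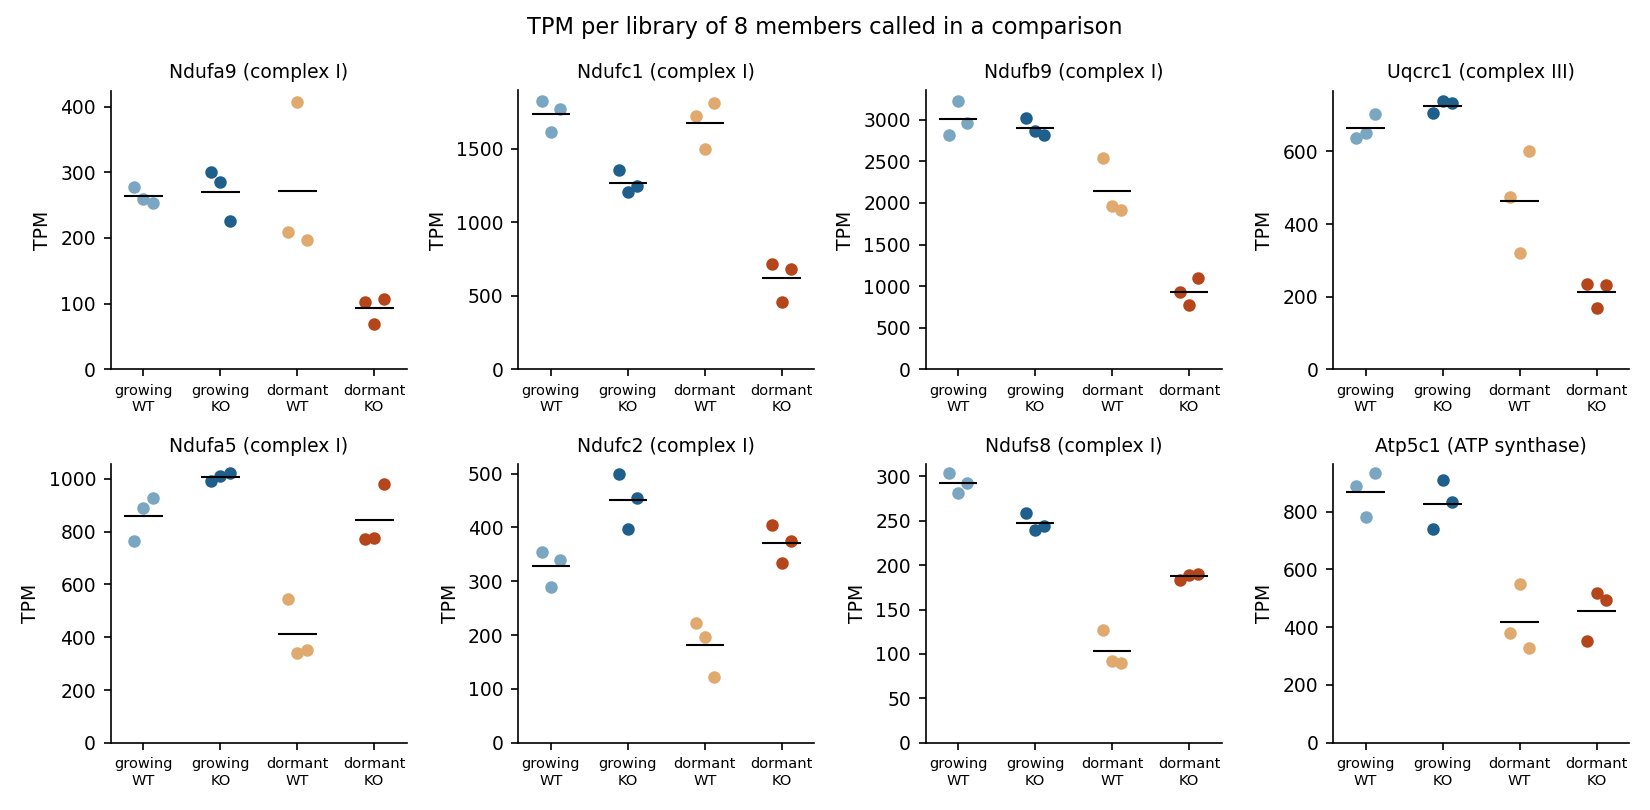
TPM per library of 8 members called in at least 1 comparison; points are libraries, horizontal lines the means of 3, and axes start at 0. Ndufa9, Ndufc1, Ndufb9 and Uqcrc1 are lowest in dormant KO, Ndufa5, Ndufc2 and Ndufs8 are lowest in dormant WT, and Atp5c1 is lower in both dormant groups (329 to 548 TPM) than in the growing ones (740.2 to 935 TPM).

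Smaller differences ran both ways. By adjusted p alone 33 members passed, 19 higher (21.3%) and 14 lower (15.7%) in dormant KO, against 13.7% and 10.2% of all tested genes. In complex IV, Cox6b1, which caps the enzyme on the side facing cytochrome c, had 1014, 1046 and 1034 TPM in dormant WT and came to 2054, 1806 and 1945 TPM in the dormant KO libraries, a difference of 0.90 ± 0.08 (adjusted p = 1.31e-05, limma). Cox8a (0.89 ± 0.17), Cox6c (0.57 ± 0.10), Cox4i1 (0.32 ± 0.10) and Cox6a1 (0.30 ± 0.09) also passed upwards. Cox7b, with 467 to 636 TPM in dormant WT and 283 to 320 TPM in dormant KO, passed downwards with -0.92 ± 0.14. Cox5b, with 1374 to 1650 TPM in dormant WT and 905 to 1043 TPM in dormant KO, did so with -0.67 ± 0.09. Cox5a, Cox7a2, Cox7c and Ndufa4 did not pass, with differences of 0.02, 0.14, 0.35 and -0.17. In ATP synthase, Atp5h of the peripheral stalk (0.95 ± 0.15) and Atp5e of the central stalk (0.38 ± 0.10) passed upwards, and Atp5g1, which encodes the rotor ring protein, passed downwards (-0.66 ± 0.12). Atp5a1 and Atp5b, the catalytic head, had differences of -0.06 ± 0.22 and 0.67 ± 0.28 and did not pass. None of the 4 subunits of complex II passed, with differences of 0.88 (Sdha), 0.16 (Sdhb), -0.57 (Sdhc) and 0.52 (Sdhd). Of the core of complex I, Ndufs8 passed upwards (0.88 ± 0.19, adjusted p = 0.00515, limma) under the size required, and was called with median ratios (1.395), with quantile normalization (1.13) and without dormant WT replicate 1 (1.04). Its adjusted p was 0.0555 when only both dormant groups were fitted. Core subunits that did not pass were Ndufs1 (-1.21 ± 0.48), Ndufs3 (-0.40 ± 0.21), Ndufs7 (1.04 ± 0.36), Ndufv1 (-0.01 ± 0.33) and Ndufv2 (-0.42 ± 0.23). Ndufs1 was called without dormant WT replicate 3 (-1.64) and had -0.75 without dormant KO replicate 1. Ndufs7 was called without dormant WT replicate 2 (1.19) or 3 (1.435), but had 0.51 without dormant WT replicate 1. Also called were Cox8a without dormant WT replicate 1 (1.06) or dormant KO replicate 2 (1.05) and Cox7b without dormant WT replicate 3 (-1.05). Atp5h was called without dormant WT replicate 2 (1.04), dormant WT replicate 3 (1.04) or dormant KO replicate 2 (1.05). With median ratios the downward differences shrank to -0.40 for Cox7b, -0.16 for Cox5b and -0.14 for Atp5g1, while Cox6b1 (1.42), Cox8a (1.41), Cox6c (1.09), Atp5b (1.185), Sdhd (1.03), Ndufs7 (1.56) and Uqcrh (1.385) were called higher. Ndufs7 was also called with quantile normalization (1.17) and with a minimum of 5 TPM.

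**Figure D3:**
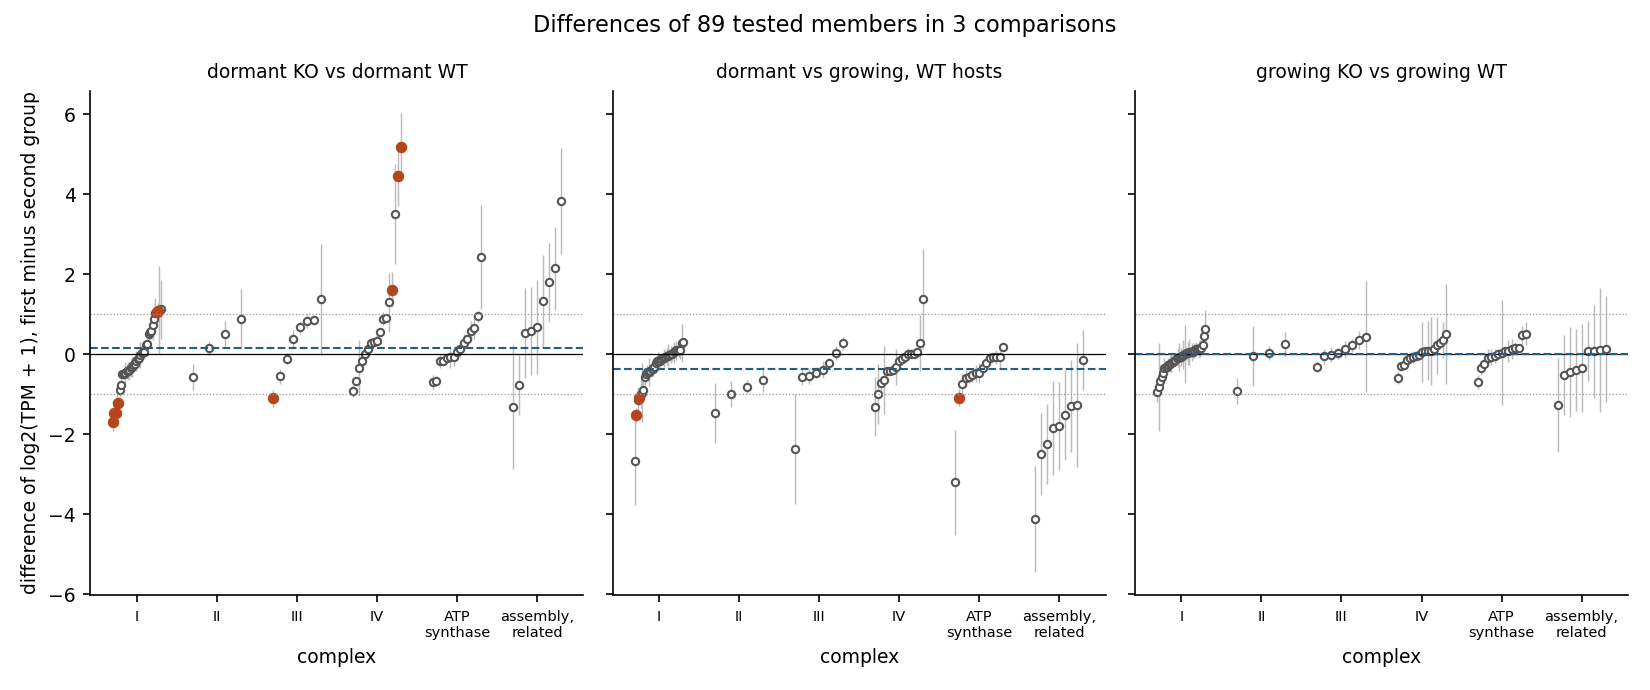
Difference of log2(TPM + 1) for the 89 tested members by complex in 3 comparisons; bars are SE, filled points are called, the dashed line is the median of all tested genes and dotted lines mark a difference of 1. In dormant KO against dormant WT, called members lie on both sides of 0 (5 higher, 5 lower), in dormant against growing in WT hosts 3 are called lower, and between the growing groups none is called.

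Ratios of subunits of the same complex do not change when a library is scaled by 1 factor but do under quantile normalization. Members of these pairs were chosen after their values were seen, so the ratios are given as a description. Ndufc1 to Ndufc2 was 7.72, 7.61 and 14.8 in dormant WT, 1.77, 1.36 and 1.83 in dormant KO, while growing WT had 5.16, 5.6 and 5.22 and growing KO 2.72, 3.05 and 2.74. The 4 groups did not overlap. Uqcrc1 to Uqcrh was 0.909, 0.49 and 1.11 in dormant WT, 0.216, 0.187 and 0.204 in dormant KO, while growing WT had 0.943 to 1.05 and growing KO 0.955 to 1.184, so that dormant KO was lower than all other libraries and the growing groups overlapped. Cox5b to Cox6b1 was 1.31 to 1.63 in dormant WT, 0.465 to 0.508 in dormant KO, while growing WT had 1.11 to 1.17 and growing KO 0.911 to 0.998. Ndufb9 to Ndufa5 was 4.64 to 5.76 in dormant WT, 0.986 to 1.20 in dormant KO, while growing WT had 3.19 to 3.70 and growing KO 2.76 to 3.05. In both of the last pairs dormant WT was highest and dormant KO lowest, and the growing groups lay between them. The alveolar type 2 marker sum, given above, was highest in dormant KO, where all 4 ratios were lowest, and its part in these ratios was not tested.

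**Figure D4:**
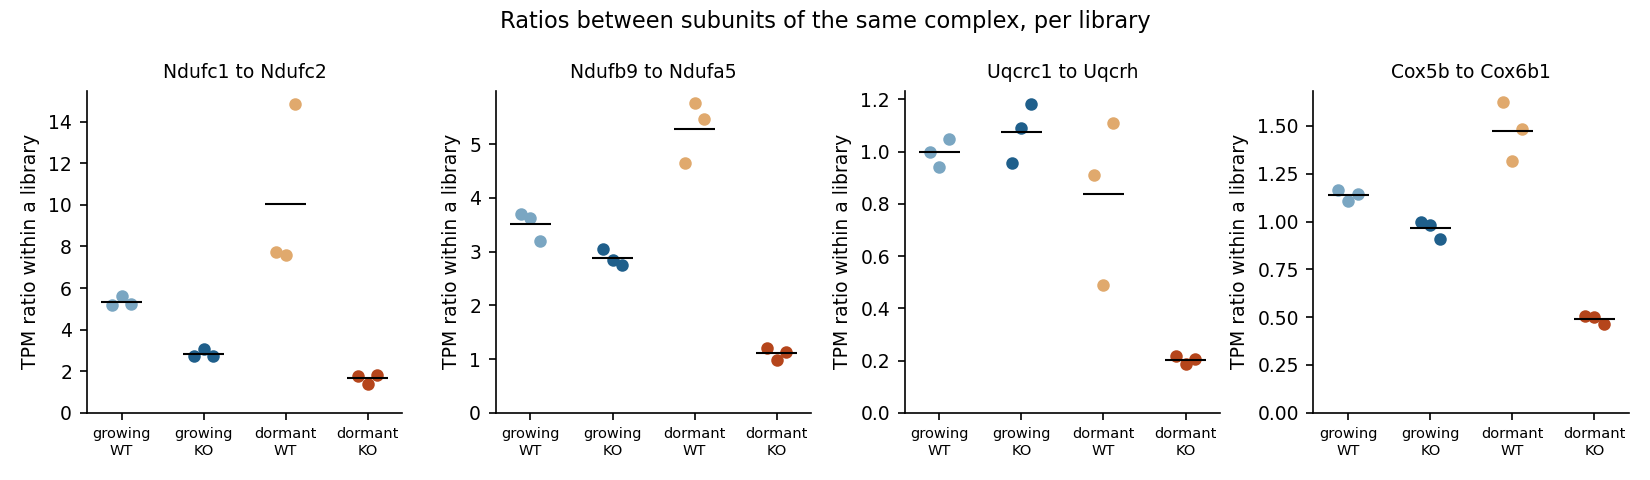
Ratio of TPM between subunits of the same complex within each library; points are libraries, lines the means of 3, and axes start at 0. The dormant KO libraries have the lowest ratio in all 4 pairs, for example 1.36 to 1.83 for Ndufc1 to Ndufc2 against 2.72 or more elsewhere.

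The 3 other members called higher in dormant KO were counted with complex IV. Of these, Cox6b2 and Ndufa4l2 passed the filter on low values only through the 3 dormant KO libraries, so that their calls follow from that choice and their values are given as a description. Cox6b2, known from testis, was listed at 0 in the 3 dormant WT libraries, at 22, 17.5 and 111 TPM in dormant KO, with 0 to 3.52 TPM in the growing libraries. Cox6a2, the form of heart and skeletal muscle, was listed at 0 in dormant WT, at 46.5, 6.53 and 29.4 TPM in dormant KO, with 0 to 2.56 TPM in growing cells. Ndufa4l2, a paralogue of Ndufa4 induced by hypoxia, was listed at 0 in dormant WT but reached 1.11, 2.23 and 3.24 TPM in dormant KO, near the limit of the filter. Its call was lost without dormant KO replicate 3 (adjusted p = 0.0658, limma), with array weights (adjusted p = 0.283) and with quantile normalization (adjusted p = 0.0622). With a pseudocount of 5 the difference of 1.62 became 0.51, under the size required. No fold is stated against groups listed at 0. Cox4i2, the lung and hypoxia form of subunit 4, had 0, 41.0 and 0 TPM in dormant WT and came to 28.5, 42.3 and 47.0 TPM in the dormant KO libraries, so that the dormant groups overlapped (adjusted p = 0.0639, limma), and it was called without dormant WT replicate 2 (adjusted p = 0.000389), with median ratios (0.0388) and with quantile normalization (0.0272). Cox4i2 had 0 to 3.91 TPM in the growing libraries.

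In all these cases the tissue form was a small part of its pair. In dormant KO, Cox4i2 was 1.27%, 2.33% and 2.01% of Cox4i2 plus Cox4i1, Cox6a2 was 2.31%, 0.403% and 1.66% of both Cox6a forms, and Cox6b2 was 1.06%, 0.961% and 5.41% of both Cox6b forms. Cox7a1, the muscle form of subunit 7a, showed no such pattern, with 23.4, 62.3 and 103 TPM in dormant WT, 17.9, 52.7 and 77.2 TPM in dormant KO and 20.1 to 80.9 TPM in growing cells, and its groups overlapped in every comparison. The list of 10 heart muscle markers summed to 163.7 to 247.3 TPM in dormant KO, 1.9 to 109.1 in dormant WT, 19.2 to 35.1 in growing WT and 74.2 to 81.4 in growing KO. Of these, Myl7 had 115 to 162 TPM and Tnni3 13.8 to 22.7 TPM in dormant KO, whereas Ryr2 was listed at 0 there and Nppa at 0.06 TPM or less. Tnnt2 of the same list ran otherwise, with 0.85 to 23.15 TPM in dormant KO, 0.23 to 49.7 in dormant WT, 19.16 to 32.34 in growing WT and 59.76 to 69.35 in growing KO. The 11 pericyte and smooth muscle markers summed to 112.5 to 171.2 TPM in dormant KO and to 3.2 to 19.1 elsewhere, with Rgs5 at 1.33 TPM or less and Cnn1 at 0. The brown adipocyte list rested on Fabp4 (193 to 281 TPM in dormant KO), with Ucp1 and Cidea at 0 in all libraries. The part of these cells in the isoform levels was not tested.

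**Figure D5:**
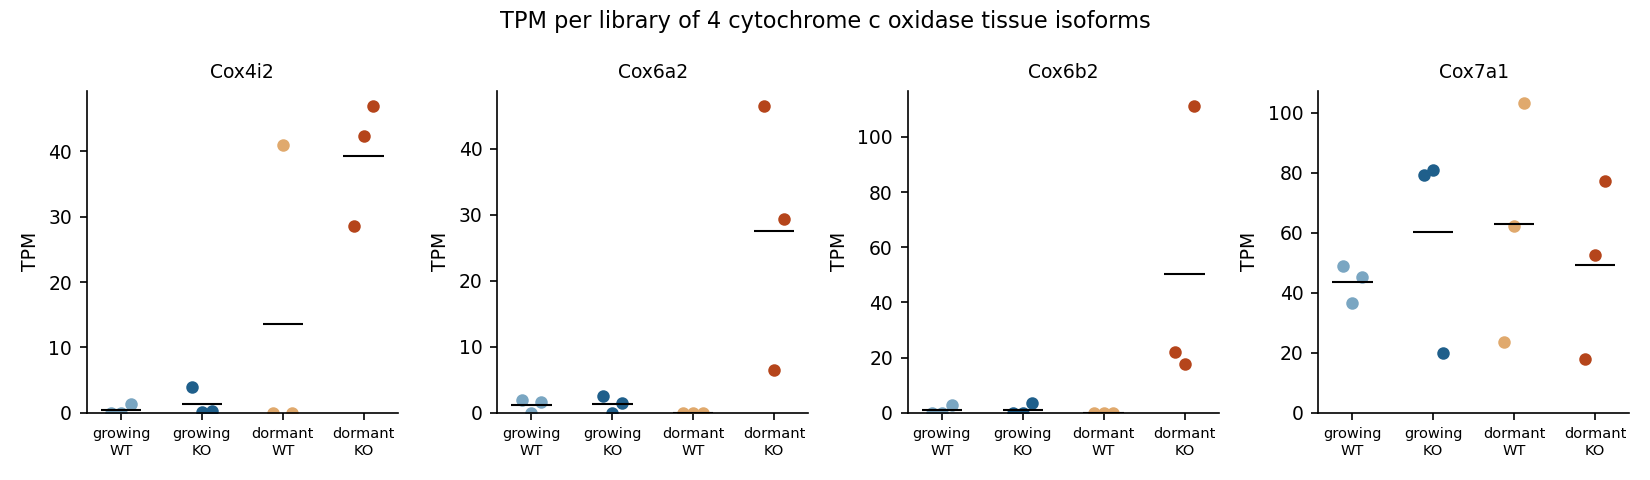
TPM per library of 4 tissue isoforms of complex IV; points are libraries, lines the means of 3, and axes start at 0. Cox6a2 and Cox6b2 are above 6 TPM only in the dormant KO libraries, Cox4i2 also in 1 dormant WT library (41.0 TPM), and Cox7a1 overlaps in all groups.

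The next comparison asked how dormant differed from growing cells within WT hosts, where all libraries shared a batch. Markers of immune cells differed here too. The sum of 10 macrophage markers was 1492.8 to 1956.4 TPM in dormant WT and 35.6 to 80.4 in growing WT, with 5 of 8 tested called higher, and that of 7 neutrophil markers was 332 to 929.4 TPM and 60.8 to 88.4, with 2 of 4 called higher. In dormant KO these sums were 3291 to 3483 and 4036.6 to 4353 TPM, and their part in the results was not tested. Here 0 members were called higher and 3 lower in dormant cells (3.37%), against 1.85% and 5.67% of all tested genes, and 71 of the 89 members (79.8%) had a negative difference, against 62.4% of all tested genes. The median member difference was -0.37, beside -0.35 over all tested genes. Ndufs8, a core subunit that carries iron-sulphur clusters in complex I (chr19:3908863-3912774, minus strand), had 127, 91.6 and 90.2 TPM in dormant WT and reached 303, 282 and 292 TPM in growing WT, a difference of -1.52 ± 0.19 (adjusted p = 0.00065, limma). It was called under every alternative tried for this comparison. Ndufa5 had 763, 890 and 929 TPM in growing WT, against the dormant values given above (-1.09 ± 0.18), and Atp5c1, the gamma subunit at the centre of ATP synthase, had 381, 548 and 329 TPM in dormant WT and reached 890, 781 and 935 TPM in growing WT (-1.08 ± 0.20). Both kept an adjusted p under 0.05 but a size under 1 with quantile normalization (-0.90 and -0.94) and without dormant WT replicate 3 (-0.99 and -0.92), Ndufa5 also without dormant WT replicate 2 (-0.97), and Atp5c1 fell just short of the size with median ratios. The count moved with the dormant WT libraries, to 9 members (10.1%) without dormant WT replicate 1 and 5 (5.62%) without replicate 2, where 14.8% and 9.66% of all tested genes were called, against 7.51% with all libraries. With quantile normalization the median over all tested genes was 0.04 and that of the members -0.16.

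By complex, all 4 subunits of complex II and all 9 assembly and related factors had negative differences in dormant WT, but none of these 13 was called with all libraries. Without dormant WT replicates 1, 2 and 3 in turn, 14.8%, 9.66% and 11.1% of all tested genes were called, against 7.51% with all libraries. The share of all tested genes called in at least 1 such fit was not counted. With 1 library left out, 6 of the 13 were called in at least 1 fit. These were Atp5sl (-2.93), Ndufaf2 (-6.27) and Ndufaf4 (-3.18) without dormant WT replicate 1, Sdha (-2.30) and Sdhc (-1.29) without replicate 2 and Ndufaf3 (-3.59) without replicate 3, whereas Ndufaf1, Ndufaf6 and Ndufaf7 turned above 0 in at least 1 such fit. Sdhb, the iron-sulphur subunit of complex II, had 409, 344 and 473 TPM in dormant WT and reached 632, 724 and 779 TPM in growing WT (-0.81 ± 0.17). This passed the adjusted p (0.0142, limma) but not the size. Sdha, its flavoprotein, ranged from 3.11 to 50.2 TPM in dormant WT, against 40.5 to 44.4 TPM in growing WT, and overlapped (-1.46 ± 0.75, and -0.48 without dormant WT replicate 1). Ndufaf2, an assembly factor, had 87.0, 0 and 0 TPM in dormant WT and reached 61.8 to 93.9 TPM in growing WT, and its difference of -4.11 ± 1.32 did not pass.

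Between growing cells of KO and WT hosts, limma called 0 of the 89 members, against 0.715% of all tested genes higher and 0.261% lower. The median member difference was 0.01, differences ranged from -1.26 to 0.64, and the smallest adjusted p was 0.106. At an unadjusted p under 0.05 there were 12 members (13.5%), against 7.53% of all tested genes, and the count of calls was 0 under every alternative. The SE here came from the spread within all 4 groups, which was wider in the dormant ones. When only both growing groups were fitted, 0 members were again called, against 2.37% of all tested genes. Groups of replicates were nevertheless separate for some members, given here as a description. The share of all tested genes with separate groups was not counted. Cox7b had 584, 542 and 544 TPM in growing WT but 376, 361 and 369 TPM in growing KO (-0.59 ± 0.14, adjusted p = 0.106). Atp5b had 699, 635 and 685 TPM in growing WT but 921, 988 and 982 TPM in growing KO (0.52 ± 0.28, adjusted p = 0.85). Sdhc, a membrane anchor of complex II, had 104, 86.9 and 107 TPM in growing WT but 50.3, 51.5 and 54.3 TPM in growing KO (-0.92 ± 0.33, adjusted p = 0.41). Cell type markers differed here too. The mesothelial sum was 258.8 to 492.8 TPM in growing KO and 22.6 to 29.6 in growing WT, with 3 of 6 called higher. Also called higher were 2 of 12 alveolar type 2 and 2 of 10 fibroblast markers, but 0 of 10 endothelial ones. Their part in the results was not tested.

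Within KO hosts, 3 members were called higher and 9 lower in dormant KO than in growing KO (3.37% and 10.1%), against 8.31% and 9.48% of all tested genes, with medians of -0.22 for members and -0.32 for all tested genes. With median-ratio scaling the split turned to 9 higher and 2 lower, against 11.4% and 5.06% of all tested genes, and the medians to 0.38 for members and 0.09 for all tested genes. Uqcrc1 (-1.79 ± 0.21) and Ndufb9 (-1.65 ± 0.14) were called lower under every alternative. Uqcrc1 had 706, 739 and 733 TPM in growing KO and Ndufb9 had 3025, 2867 and 2821 TPM, each above the dormant KO values given before. Ndufa9 (-1.54), Ndufc1 (-1.06), Ndufs1 (-1.56), Ndufv1 (-1.21), Atp5a1 (-1.03) and Ndufa8 (-1.30) were also among the lower members, 7 of the 9 belonging to complex I. None of the 6 named in this list was called with median ratios. Ndufc1 was under the size without dormant KO replicate 2 (-0.86), and Atp5a1 without dormant KO replicate 1 (-0.92) or growing KO replicate 3 (-0.96). Ndufs1, the largest subunit of complex I, had 13.9, 32.2 and 44.4 TPM in dormant KO, with 80.5, 95.3 and 71.9 TPM in growing KO, and of the 6 fits that each leave out 1 library it was called only in that without dormant KO replicate 3 (adjusted p of 0.0625 to 0.138 in the others, limma). Ndufv1, which binds NADH, had 44.6, 72.6 and 53.8 TPM in dormant KO, with 123, 98.9 and 184 TPM in growing KO, and was called in those without dormant KO replicate 2 and growing KO replicate 2 (adjusted p of 0.0583 to 0.107 in the others, limma). The higher members were Cox6b2, which passed the filter only through dormant KO, Cox6a2 and Cox4i2, whose values are given above, and Cox4i2 was called only in the fit without growing KO replicate 1 (adjusted p of 0.0613 to 0.103 in the others, limma). This comparison shares the dormant KO libraries with the comparison between hosts.

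The difference between hosts in the change from growing to dormant libraries was tested as an interaction, which is dormant minus growing in KO hosts less dormant minus growing in WT hosts. It called 3 members higher and 5 lower (3.37% and 5.62%), against 6.18% and 3.91% of all tested genes. With median ratios the split was 10 higher and 0 lower, against 8.76% and 2.30%. The lower members included Ndufa9, Uqcrc1, Ndufb9 and Ndufc1, and higher were Cox6a2, Cox6b2 and Ndufs8. Ndufb9 (-1.15 ± 0.19) was called with each of the 12 libraries left out in turn and lost the call with median ratios (adjusted p = 0.075, limma). Ndufs8 (1.12 ± 0.27) had 183, 189 and 191 TPM in dormant KO, above dormant WT and below both growing groups, and lost its call when any growing WT library or growing KO replicates 2 or 3 were left out (adjusted p of 0.0506 to 0.0629). Uqcrc1 lost it without any 1 of the 6 growing libraries (adjusted p of 0.0518 to 0.0645), and Ndufa9 without any of these or without dormant KO replicates 1 or 2 (0.0523 to 0.0927). Cox6a2 lost it without growing WT replicates 1 or 3 or growing KO replicate 2 (0.0591 to 0.0636), and Cox6b2 without growing WT replicate 3 or growing KO replicates 1 or 2 (0.0535 to 0.0547). Both also lost it with no filter (0.0582 and 0.0544) and with array weights (0.067 and 0.0964). Ndufc1 was under the size without dormant WT replicates 1 or 3, dormant KO replicate 2, growing WT replicate 2 or growing KO replicate 1 (-0.99 to -0.80). The count of 8 became 4, 4 and 3 without growing WT replicates 1, 2 and 3, and 4, 3 and 5 without growing KO replicates 1, 2 and 3. In these 6 fits 6.69% to 7.81% of all tested genes were called, against 10.1% with all libraries.

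The genes around the complexes were read from lists written with earlier results of these data known. Of 93 nuclear genes for assembly, electron carriers and transport, the TCA cycle and mitochondrial biogenesis, 89 were tested. In dormant KO against dormant WT 5 were higher and 11 lower, against 12.9% and 9.39% of all tested genes, and with median ratios 8 and 4, against 17.6% and 6.15%. Lower were 5 of 17 genes of the TCA cycle and pyruvate dehydrogenase, and 2 of 17 with median ratios, where Pdha1, Pdhb and Suclg2 lost the call. Malate dehydrogenase, Mdh2, had 937, 592 and 817 TPM in dormant WT and came to 215, 312 and 225 TPM in the dormant KO libraries (-1.63 ± 0.19). The ADP/ATP carrier Slc25a5 had 1129, 837 and 1128 TPM in dormant WT and came to 329, 268 and 249 TPM in the dormant KO libraries (-1.86 ± 0.14), and both genes stayed called with median ratios (-1.11 and -1.35). Uqcc2, an assembly factor of complex III, had a difference of -1.23, and of -0.71 with median ratios. Of 24 assembly factors of complex IV 4 were higher and 1, Cmc1, was lower (-1.32). Of the higher ones Coa4 was listed at 0 in the 3 dormant WT libraries, at 35.0, 12.9 and 32.8 TPM in dormant KO, with 9.23 to 29.99 TPM in growing cells. Cytochrome c (Cycs) had 287, 458 and 389 TPM in dormant WT and came to 205, 210.1 and 206 TPM in the dormant KO libraries (-0.84 ± 0.18), under the size required. In the growing comparison limma called 0 of the 89. Between dormant and growing libraries 5 were lower in WT hosts, against 5.67% of all tested genes, and 1 was higher and 10 lower in KO hosts, against 8.31% and 9.48%. With median ratios 2 were lower in WT hosts, against 4.61%, and 3 were higher and 4 lower in KO hosts, against 11.4% and 5.06%, where the median over the 89 moved from -0.87 to -0.30.

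The 13 subunits encoded in mitochondrial DNA are not members and were tested in the same fit. They took 5.77%, 3.88% and 6.18% of TPM in dormant WT, 7.15%, 6.61% and 6.59% in dormant KO, while growing WT had 6.05%, 5.53% and 5.28% and growing KO 3.93%, 4.14% and 3.70%. In dormant KO against dormant WT 4 of the 13 were higher and 0 lower, against 12.9% and 9.39% of all tested genes, and 4 or more were higher under both other scalings. Subunit 3 of cytochrome c oxidase, mt-Co3, had 1852, 1308 and 1977 TPM in dormant WT and came to 5205, 5104 and 5098 TPM in the dormant KO libraries (1.61 ± 0.16). Within KO hosts 7 of the 13 were higher in dormant KO and 0 lower, against 8.31% and 9.48%, and in WT hosts 0 were called.

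Of the regulators of mitochondrial biogenesis, the coactivators Ppargc1a and Ppargc1b and the receptor Esrra were at 1.51 TPM or less in all 12 libraries. Nrf1 had 3.53, 64.9 and 0 TPM in dormant WT, 12, 30.04 and 12 TPM in dormant KO, 12.8 to 37.3 TPM in growing WT and 35.1 to 58.9 TPM in growing KO. Its dormant KO libraries were below growing KO (adjusted p = 0.427, limma), and the other groups compared overlapped. Gabpa (0 to 11.2 TPM), Pprc1 (1 to 27.4 TPM), Tfam (0.01 to 54.4 TPM) and Yy1 (0.26 to 23.02 TPM) were low and variable. None of the 10 tested regulators was called in any comparison. Differences in these factors were not detectable against the spread between replicates.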

How the data were processed

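The deposited values were TPM from 12 libraries. The authors used Cutadapt for trimming and STAR 2.5.2b for alignment to mm10, and quantified genes by RSEM with GENCODE models. Versions of Cutadapt (1.18 in the submitters' processing notes) and RSEM (1.3.3) differ from those in the methods, as do the kit (TruSeq in the labels, Smart-seq2 in the methods) and the day of sorting. Reads that fit several similar sequences are divided by RSEM's model, so that levels of genes with processed pseudogenes, of which the members have many, are uncertain. The depth is unknown, so no counting error is given. Another 30 per-sample columns matched no label and were left aside.

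TPM was transformed to log2(TPM + 1), which understates the change of low genes. Genes at 1 TPM or more in at least 3 libraries were tested with limma 3.58.1 in R 4.3.3 (moderated, with an intensity trend; two-sided) in 1 fit of all 12 libraries with a mean per group. Called means an adjusted p of at most 0.05 over all tested genes and a difference of at least 1. The study's DESeq2 fit was not used, since TPM are not counts. Per the paper each group had 3 mice. Whether dormant and growing libraries came from the same mice is not given in the sources used here, and p-values measure the spread between libraries. Scripts were tested on simulated data. The alternatives were other pseudocounts (0.1 and 5), a minimum of 5 TPM or no filter, scaling by median ratios or quantiles, array weights, fits of the compared groups alone, the replicate number as a block, other thresholds, leaving out the Ndufaf genes and leaving out each library.

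The members and lists were chosen with earlier results of these data known. Named genes were, per comparison, up to 4 higher and 4 lower called members of largest difference whose groups do not overlap, the 3 highest and 3 lowest members, a fixed panel of core subunits and isoforms, and regulators. Ndufa8, Atp5h, the Ndufaf genes, the genes of the pathway and marker lists and the subunit pairs were named after their values were seen. Gene coordinates are those of GENCODE M21 on GRCm38, which listed all 92 members, 91 under the same name. Start regions are RefSeq's on GRCm38.p6, cut at the more upstream of the RefSeq and GENCODE starts. The results of 1 member are not reported here, although it is included in the counts.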

Additional observations from a re-analysis of the deposited data

Results flagged for a closer look

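The change from growing to dormant libraries differed between hosts for 8 members, of which 7 are given here, by the interaction term of the fit across all tested genes (limma, adjusted p of at most 0.05 and a size of at least 1), on the scale of log2(TPM + 1). These were 3 higher and 5 lower (3.37% and 5.62%), against 6.18% and 3.91% of all tested genes, and with median ratios 10 higher and 0 lower, against 8.76% and 2.30%. The value was -1.50 for Ndufa9, -1.23 for Uqcrc1, -1.15 for Ndufb9 and -1.01 for Ndufc1, all of which were lower in dormant KO than in growing KO while dormant WT differed from growing WT by 0.56 or less. With median ratios these 4 calls were lost (adjusted p = 0.229, 0.184, 0.075 and 0.296, limma). It was 1.12 for Ndufs8, which was lower in dormant than in growing WT libraries (-1.52) and by less in KO hosts (-0.40). For Cox6a2 the value was 4.41 and for Cox6b2 5.09. Both were listed at 0 in every dormant WT library, so that these values depend on the pseudocount and are no fold. Cox6b2 passed the filter only through dormant KO, and both calls were lost with no filter (adjusted p = 0.0582 and 0.0544, limma) and with array weights (0.067 and 0.0964). The tumour line and alveolar type 2 marker sums changed in the same libraries, and their part was not tested.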

How the results depend on the processing

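With depth unknown, precision was judged only from the spread between libraries. The fit pooled this spread over all 4 groups, although it was widest in dormant WT. For dormant KO against dormant WT, 10 members were called, 24 with median-ratio scaling and 33 by adjusted p alone, while 22.3%, 23.7% and 24% of all tested genes were. When only both dormant groups were fitted, 7 were called (4 higher and 3 lower), beside 12.9% of all tested genes. With array weights 10 were called, beside 10.9%. In WT hosts, 3 were called between dormant and growing cells, 1 with quantile normalization and 11 by adjusted p alone (7.51%, 7.44% and 8.44% of all tested genes). In KO hosts 12 were called, and 24 by adjusted p alone (17.8% and 19.2%). For the interaction 8 were called, 4 with no filter, 5 with array weights and 1 at an adjusted p of at most 0.01 (10.1%, 4.19%, 6.76% and 4.73%). Leaving out each library gave 9 to 15, 3 to 9, 8 to 10 and 3 to 11 calls in these comparisons, and 0 between the growing groups, beside 19.1% to 28%, 3.48% to 14.8%, 13.5% to 16.1% and 6.69% to 15% of all tested genes. The cause of these changes was not tested. Leaving aside Cox6b2 and Ndufa4l2, which passed the filter only through dormant KO, 6 of 28 calls of named members held under every alternative, 21 were lost under a setting and 15 with a library left out, and none changed sign. Deviations of same-numbered libraries from their group means had correlations of -0.015 to 0.021 over all tested genes. Between dormant KO and growing KO these were 0.021, 0.019 and 0.011, and -0.018 to -0.001 for libraries of different numbers. This check cannot show whether the numbers mark a pairing, because low genes, whose spread was wide, enter it too. With a replicate block the counts were 10, 0, 3, 11 and 7.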

Other observations

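The rotor ring of ATP synthase is built from 1 protein encoded by 3 genes, Atp5g1, Atp5g2 and Atp5g3, and their proportions differed between groups. Atp5g1 made up 69%, 57.9% and 74.2% of the TPM of the 3 genes in dormant WT and 52.2%, 53.4% and 49.5% with the dormant KO label, beside 69%, 69.4% and 67.4% for growing WT and 63.8%, 64% and 62.1% for growing KO. Atp5g2 made up 15.8%, 18.6% and 12.8% in dormant WT and 29.2%, 27% and 30.1% with the dormant KO label, beside 17.5%, 15.8% and 18.9% for growing WT and 20.9%, 19.7% and 20.9% for growing KO. The dormant KO libraries thus had the lowest share of Atp5g1 and the highest of Atp5g2, and the growing KO libraries were apart from growing WT in both. Such shares do not change when a library is scaled by 1 factor. They were chosen after their values were seen and carry no test.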
